A study of Homo sapiens with 6 samples.

Results

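MALAT1 and NEAT1, which stay in the nucleus, and 6 spliced snoRNA host genes (GAS5, SNHG1, SNHG5, SNHG8, SNHG15 and SNHG16) were followed in an Ago-RIP-seq experiment. The 8 long noncoding RNA (lncRNA) genes were taken by name from the 60708 genes of each count table, and each name matched 1 gene identifier. The experiment used MDA-MB-231, an established human cell line of triple-negative breast cancer, which was transfected at 25 nM with a miR-99b-5p mimic or with a scrambled control oligonucleotide and lysed after 18 hours. AGO2, the protein that carries microRNAs to their targets, was pulled down with its bound RNA (AGO2-IP), and the RNA that stayed behind was kept as the flow-through. From mimic-transfected cells there were 2 AGO2-IP and 2 flow-through libraries, numbered as biological replicates 1 and 2. By the sample labels there was 1 library of each fraction from control cells, so that no comparison with a control library has a replicate check. All libraries came from this 1 cell line, all were made from transfected cells, and an untransfected group was not analysed here.

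Counts on genes ran from 38022779 to 48544756 in the mimic libraries and were 7772149 in the control flow-through and 8076375 in the control AGO2-IP. Mitochondrial genes took 43.4% of the gene counts of the control flow-through, 3.48% for the control AGO2-IP and no more than 0.125% in any mimic library. VIM, CD44, EGFR, AXL and CAV1, which mark mesenchymal and basal cells, lay between 59.0 and 2729 CPM (counts scaled to a library of 1000000 gene counts) in every library. ESR1, PGR and CDH1, which mark luminal and epithelial cells, lay between 0 and 3.96 CPM. EPCAM, another epithelial marker, reached higher, at 2.80 to 11.8 CPM. ERBB2 had 37.7 to 172 CPM, which reaches into the range of the mesenchymal and basal markers. Because each library is a bulk sample, fewer cells with an RNA and less of it per cell cannot be told apart.

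MALAT1 is one of the most abundant nuclear RNAs of human cells, is mostly unspliced and gathers in nuclear speckles, where splicing factors are stored. NEAT1 builds the paraspeckle, a nuclear body in which a set of RNA-binding proteins assembles on its long isoform. The snoRNA host genes work differently: their introns release small nucleolar RNAs, which guide the chemical modification of ribosomal RNA, and the spliced exons form a lncRNA that is often exported, bound by ribosomes and degraded. Several of them begin with a run of pyrimidines at the 5′ end, as the mRNAs of ribosomal proteins do.

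In GRCh38, with GENCODE 44 as the annotation, MALAT1 (ENSG00000251562.8) lies on the plus strand at chr11:65497640-65508073 and NEAT1 (ENSG00000245532.9) on the same strand at chr11:65422774-65445540. The canonical transcripts of both consist of 1 exon, of 10434 and 22743 nucleotides. GAS5 (ENSG00000234741.8) lies on the minus strand at chr1:173858559-173868882 and has 12 exons in its canonical transcript. SNHG1 (ENSG00000255717.7, chr11:62851978-62855953, minus strand) has 11 exons and SNHG5 (ENSG00000203875.13, chr6:85650491-85678932, minus strand) has 6. SNHG8 (ENSG00000269893.8) spans chr4:118278703-118285316 on the plus strand and SNHG15 (ENSG00000232956.9) spans chr7:44983019-44986961 on the minus strand, each with 3 exons. SNHG16 (ENSG00000163597.15, chr17:76557727-76670985, plus strand) has 4 exons. The canonical host transcripts are between 498 nucleotides (SNHG16) and 6166 nucleotides (SNHG8) long.

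The first bases of some transcripts are shown as a feature that the choice by name did not use. Capitals mark a start with a C followed by at least 4 bases that are each C or T, on the transcript strand, and each line gives the first 30 bases of 1 annotated transcript with that start.
GAS5: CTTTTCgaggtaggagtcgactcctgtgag
SNHG16: CTTTTCgaggtcggccgcgtggctggaaga
SNHG5: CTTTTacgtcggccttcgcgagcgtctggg
SNHG8: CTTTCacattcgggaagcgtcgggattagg
SNHG1: CTCCTgtctgcaggatttacgcgcacgttg
Such a start was annotated for 50 of 91 GAS5 transcripts, 5 of 15 of SNHG8, 3 of 18 of SNHG16, 3 of 89 of SNHG5 and 1 of 80 of SNHG1. It was annotated for none of the 14 SNHG15, 66 MALAT1 and 9 NEAT1 transcripts. Of all 252835 annotated transcripts 2.61% had it, and of 51875 lncRNA transcripts 2.735%. The shares of SNHG1 and SNHG5 lay near these, and SNHG15 had no such start, like MALAT1 and NEAT1. Among the canonical transcripts of the members only that of GAS5 had it. The 6 bases CTTTTC opened the GAS5 and SNHG16 transcripts shown. The annotation lists many transcripts per gene, and which start the cells used was not measured.

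MALAT1 was the most heavily counted of the 8 genes in every library, at 610 CPM in the control flow-through, 254 CPM in the control AGO2-IP, 763 and 398 CPM in mimic flow-through replicates 1 and 2, and 523 and 1946 CPM in mimic AGO2-IP replicates 1 and 2. The second mimic AGO2-IP library stood far above the rest, and the first lay between the 2 flow-through libraries. NEAT1 had 39.1 CPM in the control flow-through, 95.0 CPM in the control AGO2-IP, 67.6 and 68.7 CPM in the mimic flow-through libraries and 55.8 and 148 CPM in the mimic AGO2-IP libraries. Its 2 mimic flow-through values were nearly equal, and again the second AGO2-IP library was the highest of the 6. The counts do not separate its short and long isoforms.

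SNHG16, which hosts the SNORD1 snoRNAs, had the highest CPM of the hosts in all 6 libraries, with 103 CPM in the control flow-through, 141 CPM in the control AGO2-IP, 178 and 54.8 CPM in the mimic flow-through and 151 and 195 CPM in the mimic AGO2-IP. GAS5, named for its rise in growth-arrested cells, had 33.7 CPM in the control flow-through and 33.6 CPM in the control AGO2-IP, 172 and 27.6 CPM in the mimic flow-through and 86.5 and 50.9 CPM in the mimic AGO2-IP. Both mimic AGO2-IP values of GAS5 lay between the 2 flow-through values. SNHG1, the host of the U22 snoRNA cluster, showed the same layout, with 20.2 and 16.7 CPM in the control flow-through and AGO2-IP, 62.6 and 8.40 CPM in the mimic flow-through and 27.2 and 23.7 CPM in the mimic AGO2-IP.

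SNHG8, which carries SNORA24, had 22.4 CPM in the control flow-through, 13.0 CPM in the control AGO2-IP, 59.7 and 33.8 CPM in the mimic flow-through and 19.3 and 11.02 CPM in the mimic AGO2-IP. SNHG15, which carries SNORA9, had 7.72 CPM in the control flow-through, 4.83 CPM in the control AGO2-IP, 20.0 and 15.8 CPM in the mimic flow-through and 9.93 and 6.84 CPM in the mimic AGO2-IP. For both genes the AGO2-IP lay below the flow-through among the mimic libraries and within the control pair. SNHG5, the host of SNORD50 snoRNAs, was the weakest member, at 1.42 and 0.371 CPM (11 and 3 counts) in the control flow-through and AGO2-IP, 3.87 and 0.742 CPM in the mimic flow-through and 2.67 and 1.63 CPM in the mimic AGO2-IP. SNHG5 shares its strand with 2 overlapping genes, the pseudogene PKMP3 and a protein-coding gene without a symbol (ENSG00000271793), both at 0 counts in every library, and pairs that fell on more than one of them were not counted.

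**Figure D1:**
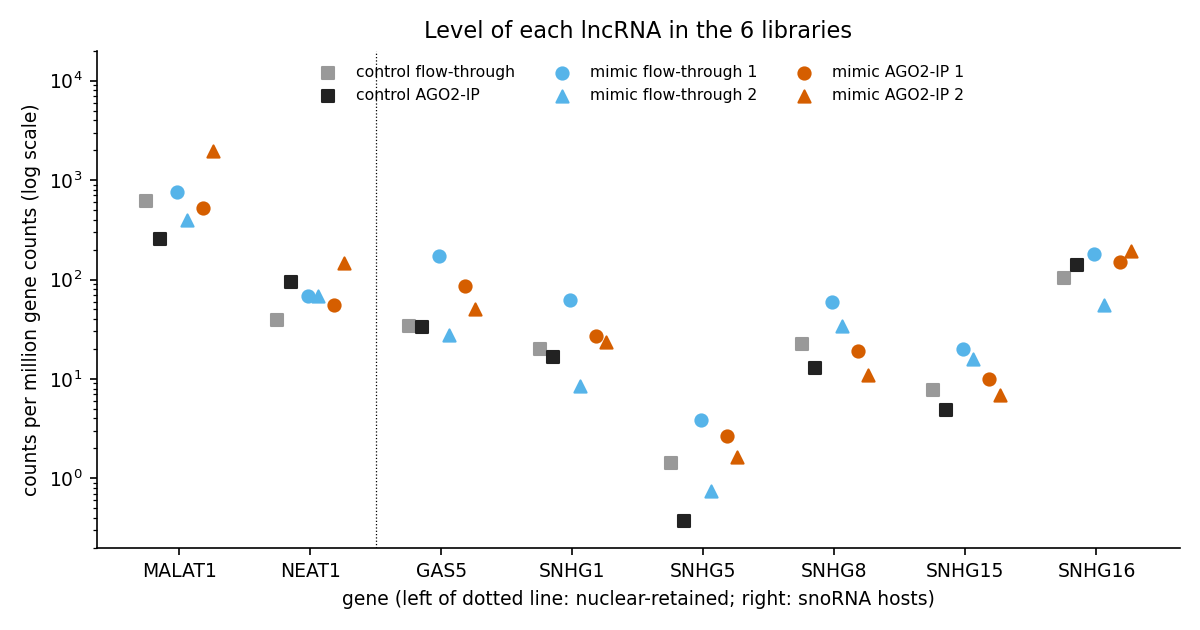
CPM, on a log scale, of each lncRNA in the 6 libraries, with MALAT1 and NEAT1 left of the dotted line and the snoRNA hosts right of it. Each point is 1 library. MALAT1 spans 254 to 1946 CPM and SNHG5 0.371 to 3.87 CPM, and for SNHG8 and SNHG15 both mimic AGO2-IP points lie below both mimic flow-through points.

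Levels of different genes can be set against each other only per length. Per kilobase of canonical transcript SNHG16 came first in all 6 libraries (110 to 391 CPM per kb), and MALAT1 (24.4 to 187 CPM per kb) and GAS5 (35.9 to 224 CPM per kb) shared the next places. NEAT1, with its long transcript, had only 1.72 to 6.51 CPM per kb. SNHG5 was last in all 6, at 0.282 to 2.94 CPM per kb. Divided instead by the length of all annotated exons together, MALAT1 came first in 5 libraries and SNHG16 in 1, the control AGO2-IP, so the order of these 2 genes depends on which exons are taken to be transcribed.

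To ask which members were more abundant with AGO2 than in the RNA left behind, the 2 mimic AGO2-IP libraries were tested against the 2 mimic flow-through libraries with edgeR's quasi-likelihood test over all 13078 genes with at least 200 summed counts. A call needed a log2 fold change of 1 or more in size and an adjusted p (Benjamini-Hochberg) of 0.05 or less. All 8 members were tested and 0 were called, where 86 of all genes (0.658%) were called. At an unadjusted p under 0.05 there was 1 member, SNHG8, against 3107 of the 13078 genes tested. PyDESeq2 called 0 members and 14.7% of all genes, and edgeR with the replicate number as a block called 0 members and 9.67% of all genes. With 2 libraries a side and a biological coefficient of variation of 0.527, these tests leave wide errors, and a missed threshold does not show equal levels.

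MALAT1 had a log2 fold change of 1.13 (SE 0.70, adjusted p = 0.339) and NEAT1 of 0.53 (SE 0.66, adjusted p = 0.643). Among the hosts SNHG16 had 0.65 (SE 0.63, adjusted p = 0.55), GAS5 had -0.42 (SE 0.74, adjusted p = 0.754) and SNHG1 had -0.34 (SE 0.78, adjusted p = 0.814). SNHG5 had 0.01 (SE 0.88, adjusted p = 0.996). The lowest values were those of SNHG8, at -1.62 (SE 0.65, adjusted p = 0.168, unadjusted p = 0.0295), and SNHG15, at -1.13 (SE 0.68, adjusted p = 0.323). Both nuclear members and 2 of the 6 hosts lay above 0 (SNHG5 only barely, and at -0.10 with library size alone), with a median of 0.83 for the nuclear pair and -0.38 for the hosts, where the median was -0.11 over all genes tested and -0.62 over the 789 lncRNA genes among them. Of those 789 lncRNA genes edgeR called 0, 114 had an unadjusted p under 0.05, and PyDESeq2 called 54.

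The 2 mimic replicates differed in direction for 6 of the 8 members. Within replicate 1 the log2 ratio of AGO2-IP over flow-through was -0.37 for MALAT1 and -0.10 for NEAT1, and within replicate 2 it was 2.04 and 0.85. SNHG1 went from -1.02 to 1.24, GAS5 from -0.81 to 0.63, SNHG5 from -0.35 to 0.85 and SNHG16 from -0.06 to 1.57. SNHG8 (-1.45 and -1.87) and SNHG15 (-0.83 and -1.46) were the members that lay on the same side of 0 in both. They were also the 2 of 8 members whose fractions did not overlap, with both AGO2-IP libraries lower. Both AGO2-IP libraries were lower in this way for 28.5% of all genes tested, so the share among the members was near that of all genes.

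**Figure D2:**
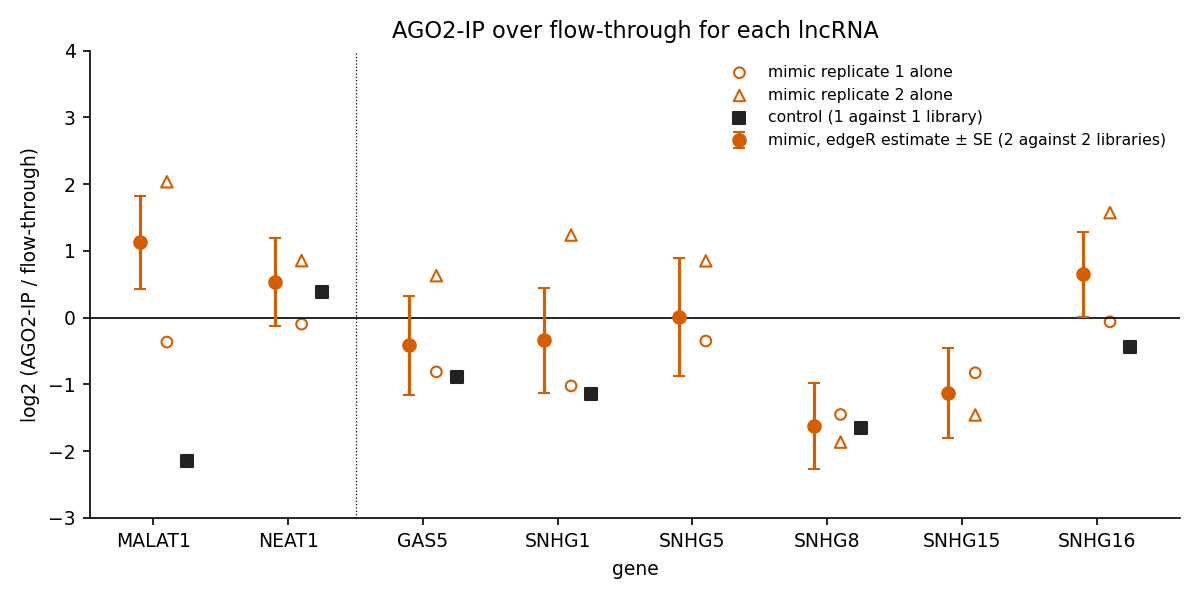
Log2 ratio of AGO2-IP over flow-through for each lncRNA: filled circles with bars are the edgeR estimate from 2 against 2 mimic libraries and its standard error, open symbols the 2 mimic replicates taken alone, and squares the control pair. SNHG8 and SNHG15 lie below 0 in both replicates, whereas the 2 replicates of the other 6 genes lie on either side of 0, and SNHG5 and SNHG15 have no control value.

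For the nuclear members 1 library set the direction. Without mimic AGO2-IP replicate 2, the log2 fold change of MALAT1 was -0.20 (adjusted p = 0.977) and that of NEAT1 was -0.42 (adjusted p = 0.953), by edgeR with the lone AGO2-IP library assumed to vary like the flow-through libraries. Without AGO2-IP replicate 1 they were 1.78 and 1.08. NEAT1 was also below 0 after GC trends were taken out (-0.041, adjusted p = 0.974), where MALAT1 had 0.50. Between the 2 AGO2-IP libraries, replicate 1 minus replicate 2, the log2 difference was -1.96 for MALAT1 and -1.47 for NEAT1, where such differences had an SD of 0.84 over all genes.

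For GAS5 and SNHG1 it turned with the flow-through library left out, and SNHG5, close to 0, turned with libraries of either fraction (-0.37 without AGO2-IP replicate 1). Without flow-through replicate 1 the log2 fold changes of GAS5, SNHG1 and SNHG5 were 0.98, 1.27 and 1.20, and without flow-through replicate 2 they were -1.16, -1.12 and -0.68. SNHG16 moved from 1.33 without flow-through replicate 1 (adjusted p = 0.0526) to 0.14 without flow-through replicate 2. In the flow-through, replicate 1 exceeded replicate 2 by 2.15 (GAS5), 2.40 (SNHG1), 1.84 (SNHG5) and 1.21 (SNHG16) on the log2 scale, but by 0.33 for SNHG8, and SNHG15 had -0.16. The flow-through difference moved with GC content over 11747 protein-coding genes (Spearman's rho -0.755, a description across genes that share 2 libraries), and the AGO2-IP difference did not follow it (rho -0.00626). The log2 fold change between the mimic fractions also moved with GC content over these genes (rho -0.545), and with transcript length (rho 0.304). Over the 789 lncRNA genes the 2 values were -0.240 and 0.042. Genes within 1 percentage point of GAS5 in GC content had a median flow-through difference of 0.35 and a 90th percentile of 1.63. The corresponding values were 0.58 and 1.80 around SNHG1, and 0.32 and 1.63 around SNHG5, so that these 3 genes differed by more than most genes of like GC content.

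**Figure D3:**
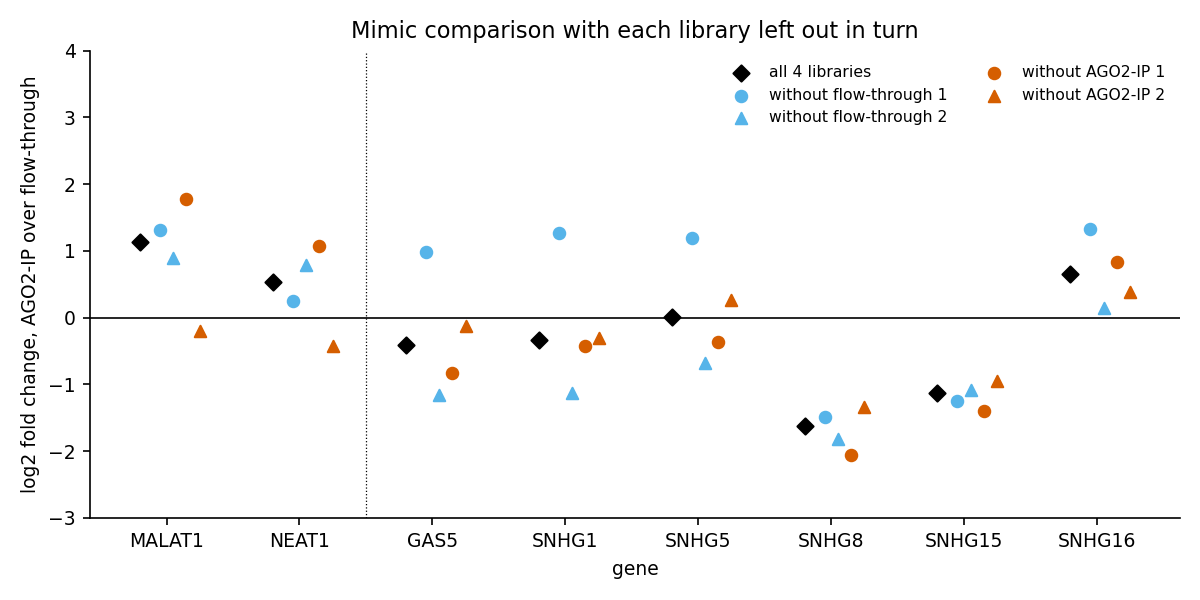
Log2 fold change of mimic AGO2-IP over flow-through for each lncRNA with all 4 libraries (diamonds) and with each library left out in turn. MALAT1 and NEAT1 fall below 0 without AGO2-IP replicate 2, GAS5 and SNHG1 rise above 0 without flow-through replicate 1, and SNHG8 and SNHG15 stay below 0 in all 4.

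SNHG8 was the host gene nearest to a call. It was called lower in AGO2-IP when flow-through replicate 1 was left out (-1.49, adjusted p = 0.0377), with GC trends taken out of every library (-2.53, adjusted p = 0.0419), and when the replicate block was added to that (-2.49, adjusted p = 0.000866). Its canonical transcript has 39.0% GC, the lowest of the 8. Its counts are also touched by a neighbour: PRSS12, a protease gene, overlaps SNHG8 on the other strand, and a read pair lying on both genes is missing from the unstranded counts. The columns counted by strand add these pairs to both genes in equal number, 419 and 43 in the mimic flow-through libraries and 1377 and 211 in the mimic AGO2-IP libraries. They made up 60.4% of the SNHG8 strand sum in AGO2-IP replicate 1 and 33.5% in replicate 2, against 13.0% and 2.56% in the flow-through.

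With those pairs counted, SNHG8 stood at 68.7 and 34.6 read pairs per 1000000 gene counts in the mimic flow-through and at 48.7 and 16.6 in the mimic AGO2-IP. The fractions then overlapped, and the log2 fold change was -0.66 (adjusted p = 0.569). The library does not mark the strand, so these pairs cannot be told apart between SNHG8 and PRSS12. SNHG16 was affected as much in size but more evenly between libraries: the strand columns added 42.9% to 60.9% of its sum, nearly all of it shared with an antisense protein-coding gene without a symbol (ENSG00000284526), and its log2 fold change was 0.52 on the summed columns. GAS5 gained between 4.30% and 12.4% of its sum from pairs shared with antisense genes. The counts of NEAT1, SNHG1, SNHG5 and SNHG15 were the same in the unstranded column and the summed strand columns, and those of MALAT1 differed by a ratio of at most 1.001.

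**Figure D4:**
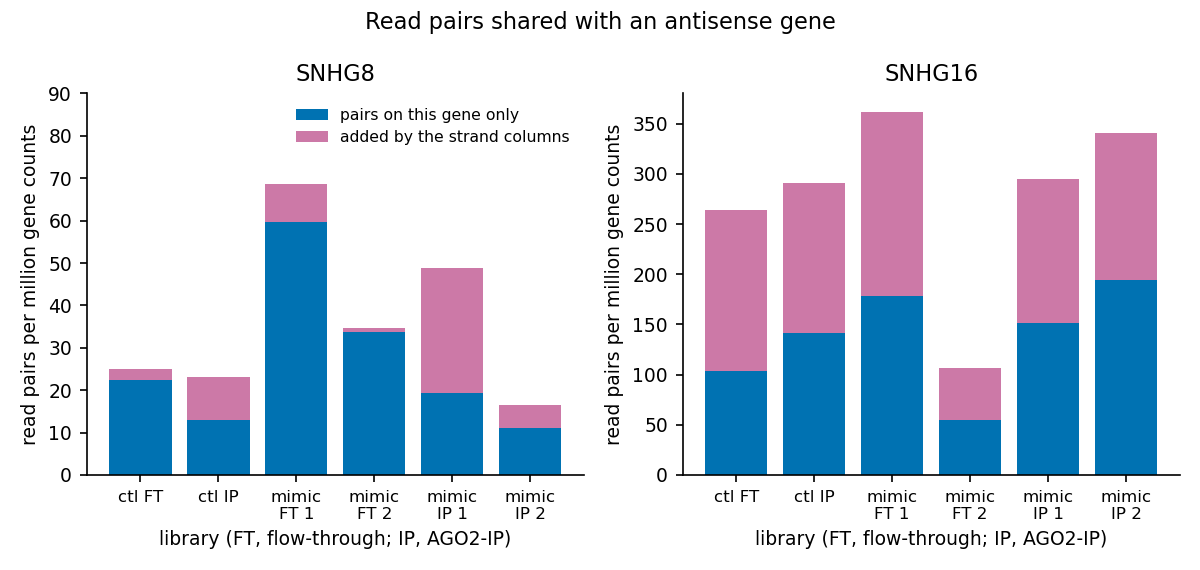
Read pairs per 1000000 gene counts on SNHG8 (left) and SNHG16 (right) in each library, with the pairs counted on the gene alone in blue and those that the strand columns add in pink. For SNHG8 the pink part is larger in AGO2-IP than in flow-through (60.4% and 33.5% against 13.0% and 2.56% in the mimic), while for SNHG16 it lies between 42.9% and 60.9% in all 6.

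To compare with cells that received the scrambled oligonucleotide, the log2 ratio of control AGO2-IP over control flow-through was taken after TMM normalization, over 8245 genes with at least 200 counts in the pair. The paper describes 2 biological replicates per condition for the AGO2-IP, whereas the sample labels give 1 AGO2-IP and 1 flow-through library from control cells. A supplementary list of the study names the 2 control libraries as replicates and gives no fraction. Every ratio with a control library therefore rests on the sample labels, and would have no meaning if these were wrong. The ratio covered 6 members, because SNHG5 and SNHG15 had too few counts (14 and 99). MALAT1 had the lowest ratio, -2.15, with 610 CPM (95% Wilson interval 593 to 628) in the flow-through and 254 CPM (243 to 265) in the AGO2-IP. SNHG8 had -1.65 and SNHG1 -1.15. GAS5 had -0.89. NEAT1 was the one member above 0, at 0.39, with 39.1 CPM (35.0 to 43.8) in the flow-through and 95.0 CPM (88.5 to 102) in the AGO2-IP. These intervals cover counting error only.

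Thus 3 of the 6 members lay at or below -1 and 0 at or above 1, against 18.1% and 15.9% of all genes in the pair. The median over all genes was 0.01 with TMM and 0.89 with library size alone, and on the latter scale MALAT1 had -1.26, SNHG8 -0.77, SNHG1 -0.27, GAS5 -0.01 and NEAT1 1.27. SNHG16 was at -0.44 with TMM but at 0.45 with library size alone. With the strand columns summed, SNHG8 was at -0.99 in the control pair, and 81 of its 186 summed pairs in the control AGO2-IP, 43.5%, were shared with PRSS12.

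Mimic and control libraries were then set side by side within each fraction, as the mean of the 2 mimic libraries over the 1 control library. In the AGO2-IP, 2 of 7 members with enough counts lay at or above 1 and 0 at or below -1, against 17.3% and 17.4% of all genes. MALAT1 was at 2.12, made up of 1.15 for replicate 1 and 3.10 for replicate 2, and GAS5 was at 1.12, made up of 1.47 and 0.76. The others were SNHG15 at 0.89, SNHG1 at 0.73, SNHG16 at 0.41, SNHG8 at 0.30 and NEAT1 at 0.07. NEAT1 again had one replicate on each side, at -0.66 and 0.80.

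In the flow-through all 8 members lay between -0.62 (MALAT1) and 0.73 (SNHG15), so that 0 passed 1 in either direction, against 10% of all genes upwards and 10.2% downwards. The control libraries differed from the mimic libraries also in the share of read pairs on no single gene, 92.3% and 95.0% against 21.4% to 47.2%. The part of this difference in the ratios was not tested.

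The nuclear pair was contrasted with the hosts inside each library, as the mean log2 CPM of MALAT1 and NEAT1 minus the mean of the 6 hosts, which does not depend on the scaling of the library. This difference was 3.25 in the control flow-through and 3.75 in the control AGO2-IP. In the mimic libraries it was 2.31 and 3.63 for the flow-through and 2.84 and 4.93 for the AGO2-IP. It was larger in AGO2-IP than in flow-through by 0.50 in the control pair, by 0.52 in mimic replicate 1 and by 1.29 in replicate 2. The control value rests in part on SNHG5, with 11 and 3 counts in the control flow-through and AGO2-IP. With SNHG5 left out of the host mean it was 0.26. The mimic groups overlapped, since flow-through replicate 2 lay above AGO2-IP replicate 1, and the mean difference of 0.91 between the mimic fractions compares with an SD of 1.24 between libraries of one fraction. With the replicates taken as pairs, the SD of the 2 differences was 0.54.

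The members of the pair did not move alike. Taken alone against the hosts, NEAT1 was higher in AGO2-IP by 0.66 and 0.70 in mimic replicates 1 and 2 and by 1.77 in the control. MALAT1 was higher by 0.39 and 1.88 in the mimic replicates and had a difference of -0.77 in the control. Between mimic and control, the contrast differed by 0.13 in the AGO2-IP and by -0.28 in the flow-through, both within the spread of the mimic replicates (SD 1.48 and 0.93). A score over chosen members was given no test.

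**Figure D5:**
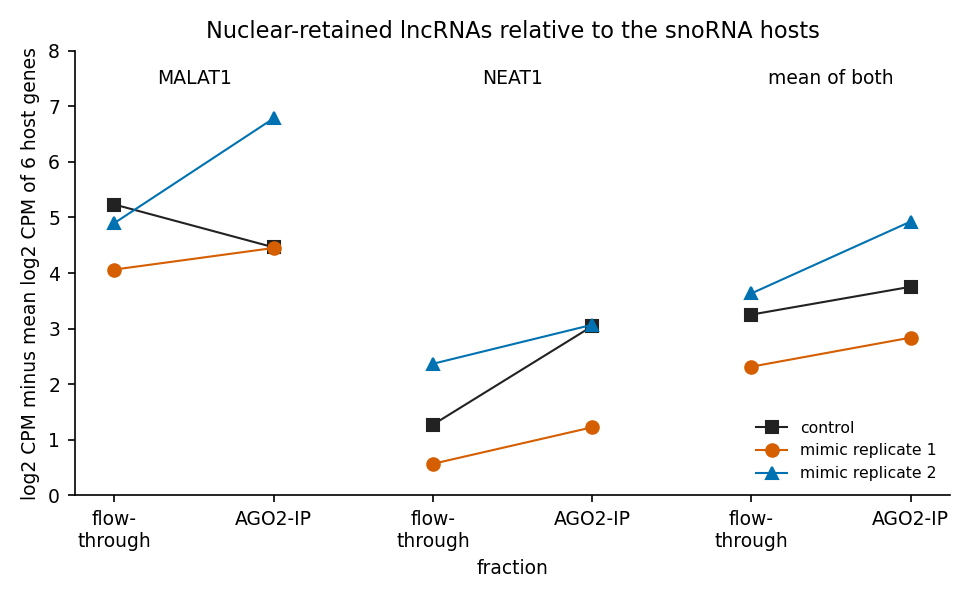
Log2 CPM of MALAT1, of NEAT1 and of their mean, each minus the mean log2 CPM of the 6 host genes, in flow-through and AGO2-IP, with lines joining the fractions of the control, of mimic replicate 1 and of mimic replicate 2. NEAT1 and the mean are higher in AGO2-IP in all 3 pairs (the mean by 0.50, 0.52 and 1.29), and MALAT1 is lower in the control pair. Without SNHG5 among the hosts the control difference of the mean is 0.26.

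The transfected microRNA itself is shown because its seed (bases 2 to 8, in capitals) sets which transcripts can pair with it. The mature sequence is encoded at chr19:51692618-51692639 of GRCh38 on the plus strand, and the sequence is that of RefSeq.
miR-99b-5p: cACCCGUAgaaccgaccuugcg
A transcript pairs with bases 2 to 7 where it reads ACGGGT. The canonical transcript of SNHG8 holds these letters once on its sense strand, without the further base on either side that would lengthen the match, and they are in capitals in the line below. Matches in the other members are not reported here.
SNHG8: gtagttggggaaACGGGTgttccgaataat
The match is at nucleotides 548 to 553 of the transcript. Of the canonical transcripts of 13066 tested genes 16.34% hold the letters, and of 789 lncRNAs 11.66%. SNHG8 had a log2 fold change of -1.62 between the mimic fractions, which was not called, and a log2 ratio of 0.30 between mimic and control AGO2-IP. A letter match shows no binding.

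The counts say little of the snoRNAs encoded inside the members. A pair that falls on a snoRNA and on an exon of its host is given to neither. Of 13 snoRNA genes annotated within the hosts on the same strand, in 5 of the 6, 12 had 0 counts in all 6 libraries. SNORD1B in SNHG16 had 7 and 3 counts in the mimic flow-through, 17 and 4 in the mimic AGO2-IP and none with the control oligonucleotide. For SNHG1, SNHG8 and SNHG15, which hold 9 of the 13, the exons of all transcripts in GENCODE 44 together cover the whole gene, so that with such exons no pair could be counted on the snoRNA. In these 3 hosts pairs from introns of the main transcript could also be counted on the host. The other 4 snoRNA genes lie in SNHG5 and SNHG16, whose exons do not cover the whole gene. The cause of the low counts was not tested.

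The wider set of snoRNA hosts gave the hosts a frame. Of 21 other noncoding hosts 17 were tested. Their median log2 fold change between the mimic fractions was -1.32, and 3 of the 17 lay above 0. The median was -0.62 over the 789 lncRNA genes tested and -0.11 over all genes. By edgeR 0 were called, whereas PyDESeq2 called 4 lower. An unadjusted p under 0.05 by edgeR was found for 7, against 114 of the 789 lncRNA genes and 3107 of all 13078. With the replicate block 4 were called lower, namely SNHG12, SNHG19, SNHG29 and SNHG32, of which SNHG19 had the lowest value of the list at -3.80 (SE 0.86, adjusted p = 0.0617). SNHG6 had the highest, at 1.43 (SE 0.96, adjusted p = 0.375). In the control pair 6 of them had a ratio, with a median of -0.96.

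Of 13 protein-coding snoRNA hosts all were tested, with a median of -0.03. DKC1, the pseudouridine synthase that works with the H/ACA class of snoRNAs, was called higher in AGO2-IP (3.41, SE 0.63, adjusted p = 0.0452), and it kept that call in 10 of 17 other edgeR settings. EIF4A2, a helicase of translation initiation, was the highest at 3.45 (SE 0.69, adjusted p = 0.0529). By edgeR with the replicate block it was called higher (3.58, adjusted p = 0.000115). TPT1, whose mRNA starts with a pyrimidine run, was the lowest at -2.78 (SE 0.95, adjusted p = 0.125). The replicate block called 3 higher and 2 lower.

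Among other nuclear lncRNAs 5 of 9 were tested and 0 were called by edgeR, with 0 at an unadjusted p under 0.05 and 0 called by PyDESeq2. Their median was -0.54, from -0.96 for PVT1 to 1.05 for TUG1. The mRNAs of 13 genes listed as coding for paraspeckle proteins lay mostly above 0, 12 of the 13 tested, with a median of 1.82. In the control pair the median of these 13 was only 0.22, against 0.01 over all genes. The control ratios ran from -1.58 for TAF15 to 2.83 for TARDBP. TARDBP (3.38, SE 0.65, adjusted p = 0.049), an RNA-binding protein with a prion-like domain, was called higher in AGO2-IP. It kept that call in 9 of 17 other edgeR settings. RBM14 was the lowest at -0.39 (SE 0.58, adjusted p = 0.708). With the replicate block 5 of the 13 were called, all higher, and PyDESeq2 called 8. The mRNA of TARDBP had 170 and 82.3 CPM in the mimic flow-through and 968 and 1590 CPM in the mimic AGO2-IP, and NEAT1 itself was not called. Without AGO2-IP replicate 2 the calls were lost for TARDBP (2.91, adjusted p = 0.562) and DKC1 (3.22, adjusted p = 0.42). Without AGO2-IP replicate 1 they were lost for TARDBP (3.71, adjusted p = 0.128) and DKC1 (3.54, adjusted p = 0.188).

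The genes whose levels ran most like those of the members were sought among 4423 genes with at least 200 counts in every library, by Pearson's r of log2 CPM over the 6 libraries, with no test. For the mean of MALAT1 and NEAT1 they were PRKACB (r = 0.975), LRCH1 (r = 0.963) and SCAF4 (r = 0.962). PRKACB, a catalytic subunit of protein kinase A, had its highest value, 56.6 CPM, in mimic AGO2-IP replicate 2. For the mean of the 6 hosts they were STAMBP (r = 0.992), RCAN3 (r = 0.989) and PPP1R2 (r = 0.984). STAMBP, a deubiquitinase, had its highest value, 101 CPM, in mimic flow-through replicate 1 and 28.2 CPM in replicate 2. The 6 points share libraries of unequal depth, and the control libraries are the 2 shallowest.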

How the data were processed

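The authors ran cutadapt 3.5 on the paired-end reads, mapped them with STAR 2.7.11b on GRCh38 and deposited STAR's counts of read pairs per gene, unstranded and per strand, without normalization. The annotation release is not given in the sources used here. Of 60708 identifiers 60463 matched GENCODE 44, which gave names, coordinates and transcripts, and 245 stayed unnamed. The fraction of each control library came from its label alone, since the study's supplementary list gives none. Rows that name no gene (21.4% to 95.0% of read pairs) entered neither library sizes nor tests.

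The unstranded counts were tested with edgeR 4.0.16 in R 4.3.3 (TMM, glmQLFit, glmQLFTest, no replicate term), and p-values were Benjamini-Hochberg adjusted over all 13078 genes. Ratios with 1 control library used TMM-normalized CPM with a prior count of 2 and have no p-value. The contrast used the TMM scale of all 6 libraries.

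The labels give both mimic fractions the same 2 biological replicate numbers. Across genes, libraries of one number deviated together from their groups (Pearson's r 0.324, Spearman's rho 0.236). The replicate numbers were taken as pairs for ratios within a replicate, but the fit reported for each gene has no replicate term. The replicate block is an alternative, with a biological coefficient of variation of 0.447 against 0.527. It is given where it changes the calls of a list or of a named gene.

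Alternatives were PyDESeq2 0.5.4, DESeq2 1.42.0 size factors, library size alone, other count filters, the strand columns, all 6 libraries in one fit, GC trends removed (lowess, span 0.2), mitochondrial genes left out, thinning to the shallowest library, a prior count of 0.5, other members in the contrast and each mimic library left out. Leaving SNHG5 out of the host mean was chosen after seeing its counts. The edgeR fit was run on simulated counts with known fold changes, and a pass was required only at a spread far below that of these data. The simulation held no replicate pairing and no GC trend. The 8 members and the gene lists were chosen with earlier results of these data known. Named are all members, the snoRNA genes with most counts inside them, the highest and lowest gene of each list with those called, apart from items not reported here, and the 3 genes most like each group.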

Additional observations from a re-analysis of the deposited data

How the results depend on the processing

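No member was called in the mimic comparison under 15 of 18 alternatives. SNHG8 alone was called with the GC trend removed (1 member, -2.53), with the replicate block and the GC trend removed (1 member, -2.49) and without flow-through replicate 1 (-1.49), so that leaving out 1 library gave 0 to 1 called members. The replicate block by itself called 0 members, and it turned SNHG1 to 0.10 and changed no other direction among the members. Beyond these, the sign of a log2 fold change turned for MALAT1 (-0.20) and NEAT1 (-0.42) without AGO2-IP replicate 2 (up to 1.78 and 1.08 without replicate 1), for NEAT1 with the GC trend removed (-0.041) or the replicate block and the GC trend removed (-0.13), and for GAS5 (0.98) and SNHG1 (1.27) without flow-through replicate 1 (-1.16 and -1.12 without replicate 2). SNHG5, at 0.01 in the comparison reported, turned with library size alone (-0.10), both strand columns summed (-0.0013), the GC trend removed (-0.18), the replicate block and the GC trend removed (-0.026), without flow-through replicate 2 (-0.68, against 1.20 without replicate 1) and without AGO2-IP replicate 1 (-0.37). SNHG8, SNHG15 and SNHG16 kept their direction in every alternative run. Over all genes the 86 calls became 1265 with the replicate block, 1918 by PyDESeq2, 731 with the GC trend removed, 3488 with both, 230 with a summed count of at least 10, 584 with 200 counts in every library, 44 with library size alone, 46 with size factors from DESeq2, 18, 14 and 29 with strand column 3, strand column 4 and their sum, and 432 with libraries thinned to the shallowest. They were 5003 and 655 without flow-through replicate 1 or 2, and 35 and 22 without AGO2-IP replicate 1 or 2.

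In the control pair, 3 members past a log2 ratio of 1 became 1 with the filter of 200 counts in every library, which leaves 4 members, and SNHG16 turned to 0.45 with library size alone. The contrast of the nuclear pair with the hosts in the control pair was -0.77 with MALAT1 alone and 1.77 with NEAT1 alone, against 0.50 for both. Leaving out 1 mimic library moved the contrast between the mimic fractions from 0.91 to between -0.14 and 1.95, that of mimic over control AGO2-IP to between -0.91 and 1.17, and that of mimic over control flow-through to between -0.94 and 0.38. The other definitions of the contrast moved it by less than the spread between replicates. The cause of these changes was not tested, and 2 libraries a side, or 1, limit every comparison.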
